A study of Homo sapiens with 8 samples.

Results

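The switched introns are 297 internal introns in 248 genes, chosen by their reads in RNA of SUM159 cells. With solvent alone, few of the reads over such an intron lay inside it. After treatment with the splicing modulator H3B-8800, many of them did. SUM159 is an established human triple-negative breast cancer line with mesenchymal features. The study treated it for 12 h with H3B-8800, a compound directed at the spliceosome's SF3b complex, or with the solvent DMSO, and sequenced polyadenylated RNA with a stranded kit. RNA was taken either after pull-down with J2, an antibody that binds double-stranded RNA, or without pull-down (input). The groups were J2 with H3B-8800, J2 with DMSO, input with H3B-8800 and input with DMSO, with 2 libraries each labelled as replicates. The labels do not say whether the replicates came from separate cultures, so p-values measure the spread between these libraries, which may be technical. They also do not say whether a J2 library and an input library with the same number came from the same culture. No pull-down with a control antibody was analysed here, so a reading in J2 RNA is not a measure of double-stranded RNA.

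The members were chosen from the input libraries alone, apart from a minimum depth. Each library came with reads inside each of 142224 listed introns of 15902 genes and with a larger total. The difference between both was taken to be reads that cross the exon junction, called spliced reads here. The intronic share is the reads inside the intron as a percentage of that total. It does not give the part of the RNA molecules with the intron, because a longer intron can collect more reads. A switched intron was neither the first nor the last listed of its gene, was 100 to under 20000 bases long and had a total of at least 20 reads in all 8 libraries. Its share was under 2% in both input libraries with DMSO and at least 30% in both with H3B-8800. Of 112009 internal introns, 18853 introns of 4440 genes met the length and read conditions and are called tested introns, and 1.58% of these were switched. Another 7259 tested introns stayed under 2% in all 4 input libraries.

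Introns are removed by the spliceosome, in which the SF3b complex of the U2 particle holds the branch site adenosine near the end of the intron, and compounds that bind SF3b disturb this step. An intron that stays in a polyadenylated RNA usually brings a stop codon into the reading frame and can hold repeats that fold into double strands. J2 binds such double strands whatever their sequence.

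The depth behind the deposited values was 47000000 to 57000000 reads per library, and 12612577 to 14643731 of them were counted over all listed introns. In input with DMSO, 7 of 8 mesenchymal marker genes had more than 1 spliced read per intron per 1000000 reads (RPM) in both libraries, among them VIM with 50.97 and 52.2 RPM. ZEB1 was the exception with 0.133 and 0.18 RPM. Of 9 luminal and epithelial markers 3 passed this level, namely KRT8, KRT18 and ERBB2, while ESR1 and PGR had 0 reads and EPCAM and CDH1 were near 0. None of 4 listed immune markers passed it.

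The sequences below show what is kept when a switched intron stays in the RNA: its splice sites and the first stop codon that the reading frame meets. They come from GENCODE 29 transcripts that have an exon across the intron, and only 45 of the 297 introns could be read this way, so no GC content, branch site or pyrimidine count is given for the whole set. All 45 began with GT and ended with AG, and in 35 of 45 the frame of the upstream exon met a stop codon, against 1803 of 2009 readable tested introns with a frame. The 5 shown are readable introns among those named by rule. Capitals mark GT, AG, the first stop codon in frame, and CTGAC where its A lies 15 to 50 bases before the exon. The first and last 3 letters are exon, all coordinates are GRCh38 with those letters included, and the strand follows in words.
DYNC1H1 intron 68, chr14:102042505-102042637, plus strand: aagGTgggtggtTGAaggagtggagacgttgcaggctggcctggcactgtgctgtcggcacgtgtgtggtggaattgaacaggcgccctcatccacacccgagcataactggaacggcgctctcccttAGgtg
HDAC3 intron 4, chr5:141629914-141630046, minus strand: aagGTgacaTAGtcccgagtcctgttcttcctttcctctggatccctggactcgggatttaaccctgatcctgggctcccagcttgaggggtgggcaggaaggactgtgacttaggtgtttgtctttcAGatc
CDK4 intron 6, chr12:57749315-57749456, minus strand: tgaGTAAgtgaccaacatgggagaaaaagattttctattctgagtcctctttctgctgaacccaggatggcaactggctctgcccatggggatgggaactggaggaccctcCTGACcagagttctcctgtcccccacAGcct
HDAC3 intron 6, start, chr5:141629654-141629686, minus strand: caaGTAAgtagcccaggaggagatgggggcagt
HDAC3 intron 6, end, chr5:141629304-141629356, minus strand: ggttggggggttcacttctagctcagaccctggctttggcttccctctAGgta
CPSF3L intron 6, start, chr1:1313479-1313511, minus strand: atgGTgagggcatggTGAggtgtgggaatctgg
CPSF3L intron 6, end, chr1:1313122-1313174, minus strand: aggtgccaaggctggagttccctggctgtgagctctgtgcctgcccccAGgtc
The stop codon begins at intron base 2 in CDK4 and in HDAC3 intron 6, where it overlaps the splice site, at base 7 in HDAC3 intron 4, at base 10 in DYNC1H1 and at base 13 in CPSF3L. CTAAC or CTGAC stood in that window in 6 of 45 readable switched introns (13.3%) and in 14.7% of 2035 readable tested introns, on the transcribed strand only. Intron numbers here and below follow the deposited list, which leaves some introns out.

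In J2 RNA, which did not choose the introns, the same introns mostly had a high intronic share with H3B-8800 and a share near 0 with DMSO. Their median intronic share was 46.9% and 49.2% in the 2 J2 libraries with H3B-8800, against 0.194% and 0.402% in those with DMSO. Over all 18853 tested introns the medians were 1.53% and 1.51% with H3B-8800 and 0 in both with DMSO. Summed over the 297 introns, 49880 and 50732 reads lay inside with H3B-8800 and 745 and 732 with DMSO, which is 55.9% and 55.2% of the reads against 1.04% and 0.964%. Both J2 libraries with H3B-8800 lay above both with DMSO for 293 of the 297 introns, as for 45.4% of all tested introns.

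The rise in J2 RNA was tested with edgeR's quasi-likelihood test of intronic against spliced reads in the 4 J2 libraries, adjusted with Benjamini-Hochberg over all tested introns at a threshold of 0.05. The ratio was higher with H3B-8800 for 282 of the 297 switched introns and lower for 0, where 29.8% of all tested introns were called higher and 0.393% lower. With DESeq2 276 were called higher and 0 lower, and at an edgeR p under 0.05 without adjustment the counts were 288 and 0. No share over all tested introns was counted for either. Of the members, 236 had a share of at least 30% in both J2 libraries with H3B-8800, against 12.7% of all tested introns. A share of at least 50% in both was seen for 115, against 7.83% of all tested introns. In J2 RNA with DMSO, 201 stayed under 2% in both libraries and 97 had no intronic read at all. These are 67.7% and 32.7% of the switched introns, against 73.7% and 52.3% of all tested introns. For these 97 a count of 0 allows a share of up to 3 reads of the total, between 0.23% and 7.5% over both libraries (median 1.96%).

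Of the 297 introns, 240 are free of other annotated exons, and 231 of these 240 were called higher when only such introns were tested. The share called over all introns of that fit was not counted. Reads inside the others can come from another exon, which holds among the introns named below for CDK4, HAUS8, GYS1, WARS, VPS28, HECTD3, TESK1, TOP3A, MYOF, RIN1 and FAM73B, for intron 4 of SDCCAG3 and for intron 12 of PLXNB2.

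**Figure D1:**
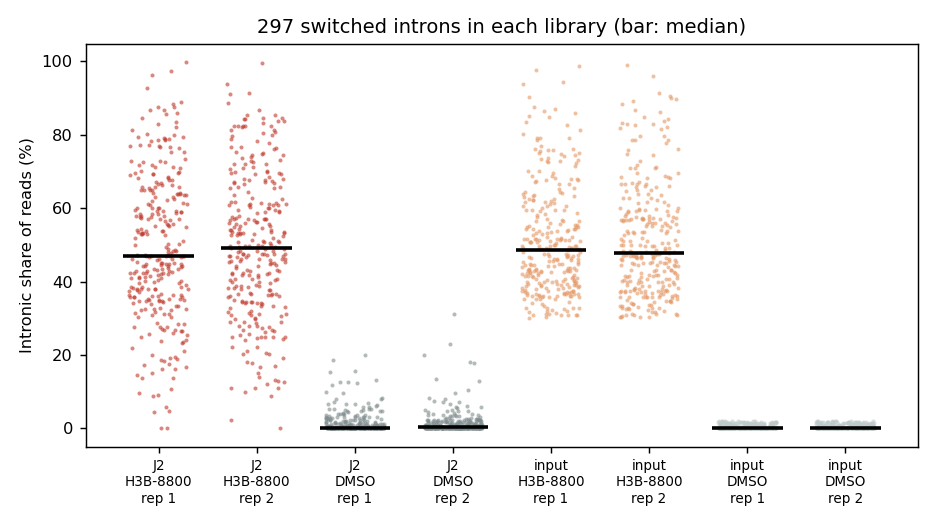
Intronic share (%, vertical axis) of the 297 switched introns in each of the 8 libraries, with 1 point per intron and a bar at the median. The input panels show the limits that chose the introns (at least 30% with H3B-8800, under 2% with DMSO), and the J2 medians are 46.9% and 49.2% with H3B-8800 and 0.194% and 0.402% with DMSO.

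The highest mean intronic share in J2 RNA with H3B-8800 was in TMEM120B, a gene for a membrane protein. Its intron 3 (chromosome 12, 121748443 to 121750379, plus strand, between coding exons) held 1138 and 1160 reads in J2 RNA with H3B-8800 against 6 and 1 with DMSO. Only 3 and 6 reads were spliced across it with H3B-8800 against 79 and 68 with DMSO. Nearly all reads over this intron were therefore inside it with the drug, at 99.7% and 99.5% against 7.06% and 1.45%, a log2 change of the ratio of 12.32 ± 0.72 (SE; edgeR adjusted p = 5.69e-31).

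DYNC1H1, the heavy chain of cytoplasmic dynein, held a second example whose sequence is shown above. Its intron 68 had 342 and 307 intronic reads in J2 RNA with H3B-8800 against 0 and 0 with DMSO, and the share was 80.1% and 79.7% against 0. This is at least 231-fold more reads per depth against a floor of 3 reads over both DMSO libraries (edgeR adjusted p for the ratio = 2.16e-17). Such floors and all counting intervals cover counting error only, as the reads carry no molecular identifiers.

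The other introns with the largest fitted effects also had no J2 read with DMSO, so their fitted fold changes depend on the prior count and only lower bounds are given. Intron 12 of PPP2R5B, a regulatory subunit of protein phosphatase 2A, had 84.5% and 84.2% in J2 RNA with H3B-8800 and 0 with DMSO, at least 53.8-fold more intronic reads. Intron 12 of GYS1, the muscle glycogen synthase, had 87.5% and 84.6% against 0, at least 71.6-fold. In both genes the libraries with H3B-8800 agreed within 3 points and did not overlap those with DMSO.

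Intron 20 of INPPL1, an inositol lipid phosphatase, had 79.3% and 82.2% with H3B-8800 against 0 with DMSO, and intron 4 of PTPRH, a receptor tyrosine phosphatase, had 76.7% and 80.0% against 0. Intron 4 of POLG, the catalytic subunit of the mitochondrial DNA polymerase, had 78.2% and 69.8% against 0. Intron 7 of STK11, a tumour suppressor kinase that activates AMPK, had 42.0% and 42.2% against 0, with at least 145-fold more intronic reads. A high read number and a moderate share stood together there, because 277 and 283 reads were still spliced across the intron with H3B-8800. Intron 4 of TGFB1I1, a focal adhesion adaptor, had 62.0% and 57.4% against 0, and intron 8 of PSMD3, a subunit of the proteasome's regulatory particle, had 44.8% and 28.6% against 0. PSMD3 was the one of these 10 whose J2 libraries with H3B-8800 differed most.

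The switched introns were also sorted by gene list. In each list the calls among switched introns are to be read against the 94.9% called higher over all 297. Of all tested introns of a list, between 14.3% (DNA replication and repair) and 36.8% (membrane traffic) were called higher, against 29.8% of all tested introns, with 33.2% for mitosis and cell cycle and 16.8% for splicing and RNA processing.

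Among mitosis and cell cycle genes, 6 of 220 tested introns were switched, in 6 genes, and all 6 were called higher in J2 RNA. AURKB encodes the kinase of the chromosomal passenger complex. Its intron 4 (chromosome 17, 8205391 to 8206490, minus strand) held 867 and 764 intronic reads in J2 RNA with H3B-8800 against 2 and 0 with DMSO, and the share was 85.8% and 82.1% against 1.06% and 0 (log2 change of the ratio 9.77 ± 0.70, edgeR adjusted p = 1.96e-24). CDK4 encodes the kinase that partners D-type cyclins in G1. Its intron 6 had 1077 and 1040 intronic reads with H3B-8800 against 3 and 0 with DMSO and a share of 53.7% and 48.8% against 0.319% and 0. Exons of TSPAN31 on the other strand reach into this intron, and the strand setting of the counts is not given in the sources used here, so reads of both genes cannot be told apart there. Intron 8 of HAUS8, a subunit of the augmin complex of the spindle, had 66.8% and 80.8% with H3B-8800 against 5.41% and 2.11% with DMSO, and also overlaps another exon.

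Genes of the splicing and RNA processing list held 3 switched introns among 546 tested (0.549%), all called higher in J2 RNA. Intron 3 of U2AF2, whose product binds the pyrimidine tract before the 3′ splice site, had 66.4% and 67.7% in J2 RNA with H3B-8800 against 1.30% and 1.48% with DMSO. Intron 17 of SYMPK, a scaffold of RNA 3′ end processing, had 92.9% and 93.8% against 1.8% and 0. Intron 14 of UPF1, the central helicase of nonsense-mediated decay, had 75.2% and 76.0% against 1.83% and 0. In each of these the libraries of the 2 treatments were far apart and those of 1 treatment close together.

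In the chromatin and transcription list 16 of 660 tested introns were switched and 13 of the 16 were called higher in J2 RNA. Besides INTS1, described below, CPSF3L, which encodes the catalytic subunit of the Integrator complex, had 72.7% and 67.0% in its intron 6 with H3B-8800 against 0.546% and 0 with DMSO. The 3 members not called were intron 6 of SMARCA4, a chromatin remodelling ATPase, and introns 4 and 6 of HDAC3, a histone deacetylase. DNA replication and repair genes had 1 switched intron among 189 tested, intron 13 of the topoisomerase gene TOP3A, and it was not called. Its J2 share was 17.3% and 2.22% with H3B-8800 against 3.03% and 0 with DMSO, so the groups overlapped.

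For genes of double-stranded RNA sensing and interferon signalling, 3 of 118 tested introns were switched and all 3 were called higher. Intron 4 of RELB, an NF-kB subunit, had 69.3% and 68.5% with H3B-8800 against 0.787% and 0 with DMSO. Intron 8 of ADARB1, an adenosine-to-inosine RNA editing enzyme, had 35.8% and 34.4% against 1.59% and 0.746%, and intron 9 of TYK2, a Janus kinase, had 42.4% and 24.4% against 0 and 1.95%. None of these groups overlapped.

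Membrane traffic genes held 9 switched introns among 348 tested, all called higher. Intron 19 of AP3D1, a subunit of the AP-3 adaptor, had 70.2% and 78.4% with H3B-8800 against 0.211% and 0.218% with DMSO. Intron 2 of CHMP1A, an ESCRT-III component, had 41.5% and 46.0% against 0.749% and 0, and intron 7 of VPS28, an ESCRT-I subunit, 78.6% and 76.5% against 4.53% and 3.69%. Translation genes held 8 among 492, all called higher, with intron 7 of the tryptophan tRNA synthetase gene WARS at 70.9% and 72.1% against 2.53% and 2.11%. In the same list intron 8 of EIF2AK1, the heme-regulated eIF2alpha kinase, had 52.9% and 58.8% against 1.40% and 0.275%, and intron 4 of FARSA, a phenylalanine tRNA synthetase subunit, 39.8% and 27.9% against 0 and 0.797%. Ubiquitin and proteasome genes held 5 among 367, all called higher, including intron 91 of the ubiquitin ligase gene HERC2 at 66.7% and 65.6% against 0 and intron 13 of HECTD3, another ubiquitin ligase gene, at 27.6% and 56.7% against 0. Over all tested introns 1.58% were switched, and the 8 lists ran from 0.529% in DNA replication and repair to 2.73% in mitosis and cell cycle, which is a description and was not tested.

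The 2 parts of the ratio were then tested apart, each scaled to library depth. Intronic reads were called higher with H3B-8800 in J2 RNA for 286 of the 297 switched introns and lower for 0, where 28.8% of all tested introns were called higher and 0.886% lower. At an edgeR p under 0.05 without adjustment 291 were higher and 0 lower, and DESeq2 called 194 higher and 0 lower. Reads spliced across the intron were called lower for 197 and higher for 26, while 46.7% of all tested introns were called lower and 20.6% higher. The median log2 change of spliced reads was -1.03 over the switched introns and -0.36 over all tested introns, with 2 libraries against 2 in edgeR. Scaling by TMM moved the median of all tested introns to 0.01 and that of the switched introns to -0.66. Under TMM, 162 were called lower and 51 higher for spliced reads, with no direction turned round by the scaling, and 150 were called higher for intronic reads. No share over all tested introns was counted under TMM, DESeq2 or the unadjusted p. The shares given above hold for depth scaling with adjusted p only. In bulk RNA, fewer cells with a transcript and less of it per cell cannot be told apart.

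**Figure D2:**
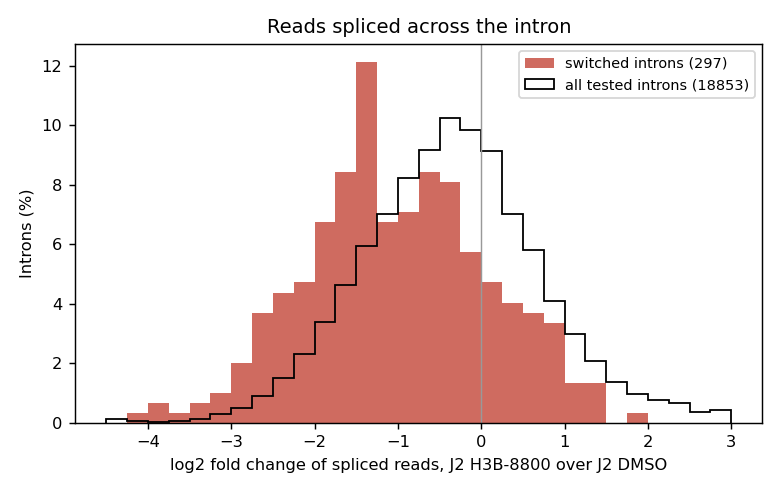
Distribution of the log2 fold change of spliced reads, J2 with H3B-8800 over J2 with DMSO (horizontal axis), as a percentage of introns (vertical axis), for the 297 switched introns (filled) and all 18853 tested introns (outline), with values beyond the axis placed in the end bins. The switched introns have a median of -1.03 and all tested introns of -0.36 at depth scaling.

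For 191 switched introns intronic reads were called higher and spliced reads lower, for 26 both were called higher, and for 69 intronic reads were called higher with no call for spliced reads. The same 3 kinds made up 15.4%, 5.49% and 7.92% of all tested introns. TMEM120B belonged to the first kind, with a log2 change of its spliced reads of -3.90 ± 0.37 (SE; edgeR adjusted p = 8.64e-06), as did PPP2R5B with -3.01 ± 0.25 (edgeR adjusted p = 4.01e-06). U2AF2 belonged to the second kind. It had 693 and 778 spliced reads in J2 RNA with H3B-8800 against 457 and 466 with DMSO (log2 change 0.77 ± 0.09, edgeR adjusted p = 4.39e-05) beside 1371 and 1630 intronic reads against 6 and 7. Intron 5 of SKI, a corepressor of TGF-beta signalling, had 398 and 477 spliced reads against 174 and 159 (log2 change 1.48 ± 0.12, edgeR adjusted p = 4.27e-06). Spliced and unspliced RNA of these introns were both more abundant per depth with the drug. AURKB was of the third kind, with 143 and 167 spliced reads against 186 and 189 (log2 change -0.18 ± 0.14, edgeR adjusted p = 0.262), so its intronic reads were high while its spliced reads did not pass the test.

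Recovery by J2 was described for H3B-8800 as depth-scaled reads in J2 RNA over the input, without a test, since the input chose the introns. The median over the 297 was 1.19 for intronic reads (quartiles 0.815 and 1.74) and 1.22 for spliced reads, while the spliced reads of all tested introns had a median of 1.01. More intronic reads per depth in J2 RNA than in the input were seen for 191 introns. Among introns with at least 20 intronic reads in each input library with H3B-8800, the median intronic recovery was 1.20 for 237 switched and 1.035 for 3310 other introns, and 65.8% against 51.7% were above 1. The spliced reads of the same introns had medians of 1.21 and 1.11. The intronic share was higher in both J2 libraries than in both input libraries for 81 introns and lower in both for 93. No such count was made over all tested introns, and the rule bounded only the input side, so neither count can be judged. The difference in mean share, J2 minus input with H3B-8800, had a median of -0.811 points over the switched introns (quartiles -8.51 and 6.32). Over all tested introns its median was 0 (quartiles -1.86 and 0.753). The shares in J2 RNA and input had a Spearman correlation of 0.725 over the 297 introns, beside 0.864 between the J2 replicates and 0.747 between the input replicates. These points share genes and libraries, so the correlations carry no p.

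**Figure D3:**
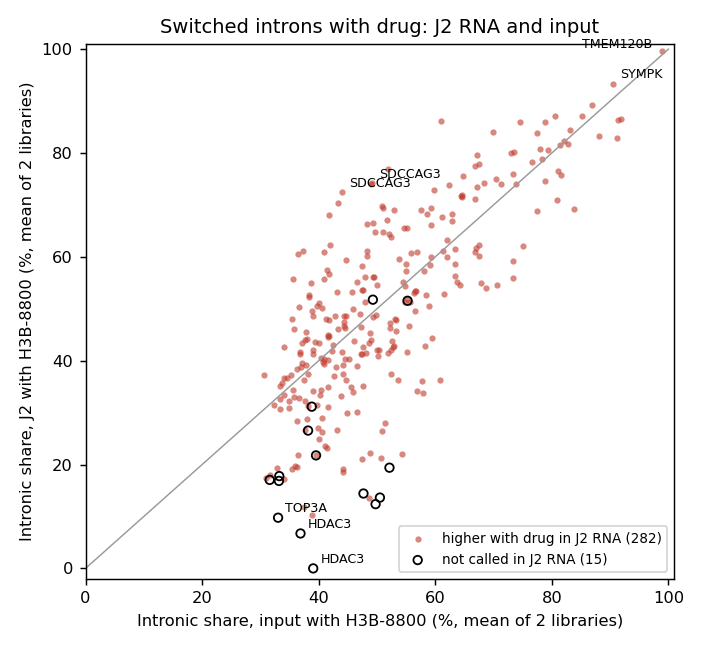
Intronic share with H3B-8800 in J2 RNA (vertical axis, %, mean of 2 libraries) against the input (horizontal axis, %, mean of 2 libraries) for the 297 switched introns, with a line of equality. Filled points are the 282 called higher in J2 RNA and open circles the 15 not called, and SDCCAG3 lies above the line and HDAC3 at the bottom.

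SDCCAG3, which encodes an endosome-associated protein, had the highest recovery of intronic reads, in both of its switched introns. Intron 5 had 833 and 753 intronic reads in J2 RNA with H3B-8800 and a share of 72.8% and 72.1%, against 43.6% and 44.4% in the input with H3B-8800. Its recovery was 11.6-fold for intronic and 3.49-fold for spliced reads, and that of intron 4 was 8.31-fold and 2.79-fold. The spliced RNA of the gene was thus also above the input in J2 RNA, less so than the reads inside the introns. In intron 6 of CAPN15, a calpain family protease gene, the input libraries with H3B-8800 held only 11 and 14 intronic reads. Recovery of intronic reads was 3.52-fold there, and that of spliced reads was higher, at 4.2-fold. For CPSF3L intron 6 the intronic recovery was 3.33-fold, and 1.47-fold for spliced reads. For intron 13 of MYO9B it was 3.51-fold, and 1.21-fold for spliced reads, but the 2 input libraries with H3B-8800 held 9 and 39 intronic reads, and the recovery was 9.2-fold against the first alone and 2.17-fold against the second alone.

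HDAC3 stood at the other end. Its intron 6 had no read inside in any J2 library, although its input share with H3B-8800 was 46.9% and 31.2%, on only 15 and 10 intronic reads. Its intron 4 had 1 and 2 reads with H3B-8800 against 0 with DMSO, and an input share with H3B-8800 of 39.3% and 34.5%, on 11 and 10 intronic reads. Spliced reads of both introns were present, with 20 and 27 across intron 6 in J2 RNA with H3B-8800 against 131 and 165 with DMSO. The recovery of spliced reads was 1.11-fold for intron 6 and 1.05-fold for intron 4, so spliced reads of the gene stood near their input level in J2 RNA. In DYNC1H1, intron 68 had a recovery of 1.53-fold and intron 48 of 0.161-fold in the same libraries, with 17 and 23 intronic reads in J2 RNA with H3B-8800 at intron 48. Spliced reads had a recovery of 1.04-fold at intron 68 and 0.441-fold at intron 48, so they too were lower at intron 48.

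The switched introns were spread over many genes: 207 of the 248 genes had 1, 35 had 2, 4 had 3 and 2 had 4, and 14 pairs were next to each other. INTS1, the largest subunit of Integrator, had 4 among 40 tested introns. In J2 RNA with H3B-8800 against DMSO their mean shares were 60.9% against 1.09% (intron 4), 43.4% against 0 (intron 19), 43.8% against 1.09% (intron 38) and 68.0% against 0 (intron 41). All 4 were called higher, but intron 19 lost the call without J2 DMSO replicate 2 (edgeR adjusted p = 0.0586). The other 36 tested introns of INTS1 had a median share of 5.11% with H3B-8800, and 13 of them were called higher. Introns 26 and 27 reached 85.8% and 51.7% in J2 RNA with H3B-8800 against 13.5% and 8.30% with DMSO, and were not switched.

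In MYO9B, an unconventional myosin, the switched introns 13, 22 and 31 had mean J2 shares of 86.1%, 27.96% and 80.2% with H3B-8800 against 1.89%, 0 and 0.645% with DMSO. The libraries of the 2 treatments did not overlap in any of these. In PLXNB2, a semaphorin receptor, introns 3, 12 and 30 had 39.7%, 43.5% and 41.3% with H3B-8800 against 1.75%, 0.455% and 0.677% with DMSO, and intron 3 lost the call without J2 DMSO replicate 1 (edgeR adjusted p = 0.0616). In each of the 3 genes the lowest mean J2 share with H3B-8800 among the other tested introns was 0. Switched introns did not always lie between introns near 0. In MYO9B, intron 23 next to intron 22 had 86.6%. The nearest tested introns on each side of intron 31, introns 30 and 33, had 75.9% and 70.6%. The 10 other tested introns of MYO9B had a median of 8.79%, and 5 of them were called higher. In PLXNB2, introns 11 and 13 next to intron 12 had 27.4% and 0.943%.

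**Figure D4:**
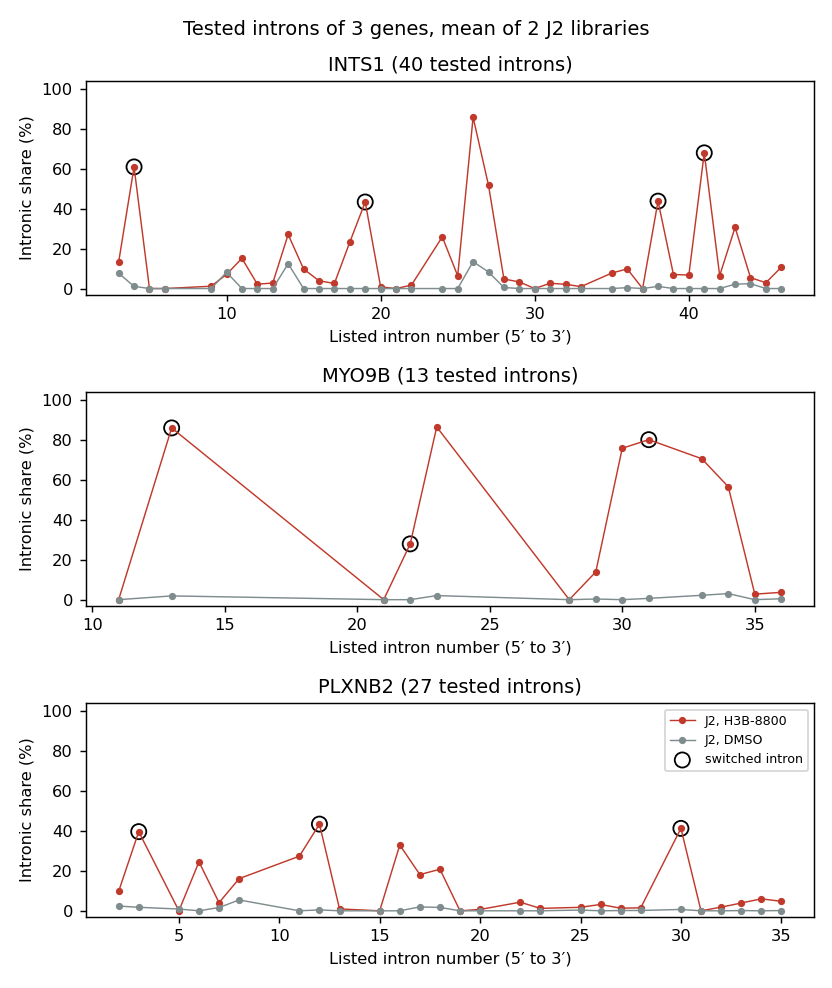
Intronic share in J2 RNA (vertical axis, %, mean of 2 libraries) for each tested intron of INTS1, MYO9B and PLXNB2 by its listed number (horizontal axis), with H3B-8800 in red and DMSO in grey and black rings around the switched introns. The other introns of INTS1 have a median of 5.11% with H3B-8800, and those of PLXNB2 3.54%.

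Other introns of the same genes also changed in part. Of 1859 tested, 790 were called higher in J2 RNA with H3B-8800 (42.5%) and 1 lower, and their median share was 4.50% with H3B-8800 and 0 with DMSO. In genes without a switched intron 4547 of 16697 were called higher (27.2%). The share called higher was 53.5% of 342 introns next to a switched intron, 46.2% of 266 introns 2 away, 38.0% of 542 introns 3 to 5 away and 39.2% of 709 further away. The difference between these classes was not tested. Of 237 genes with another tested intron, 33 had none of the others called higher and 33 had all of them called. Some of these genes had only 1 other tested intron, and genes without a switched intron were not counted in this way. Neither count can therefore be judged.

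**Figure D5:**
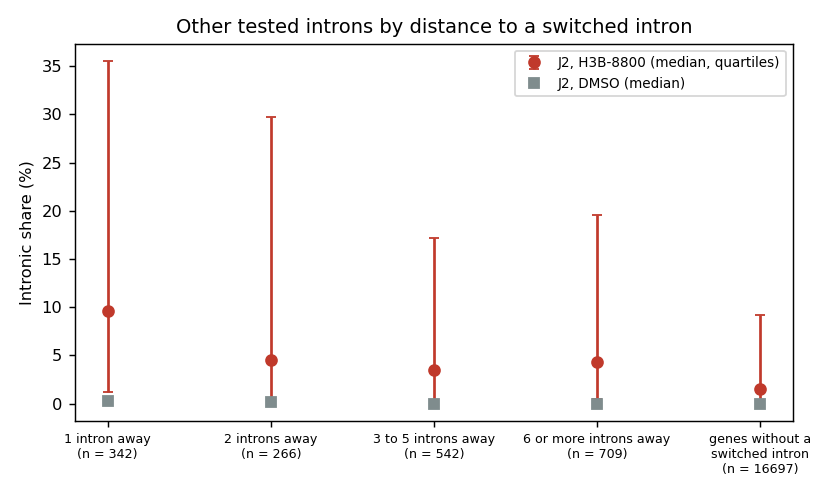
Intronic share in J2 RNA (vertical axis, %) of tested introns that are not switched, by their distance to the nearest switched intron of the gene, with the median and quartiles for H3B-8800 (red) and the median for DMSO (grey). The median with H3B-8800 is 9.55% next to a switched intron and 1.47% in genes without one.

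The switched introns were shorter than tested introns, with a median of 610 against 943 bases and a range of 100 to 16422 bases, within the length limits of the rule. The 7259 introns under 2% in all 4 input libraries had a median of 684 bases, so most of this gap was shared with introns that stayed spliced in the input. Of tested introns of 100 to under 200 bases 2.37% were switched (63 of 2661), and of those of 2000 bases and more 1.11% (62 of 5595). The median J2 share of the switched introns with H3B-8800 was 51.3% in the shortest class and 45.4% in the longest, where the rule required at least 30% in the input. Over all tested introns it was 1.14% in the shortest class and 2.74% in the longest. A longer intron can collect more reads, so these shares do not compare retention between the length classes. The flanking exons were somewhat longer and richer in G and C, with a median GC of 58.9% upstream and 59.2% downstream against 56.4% and 56.3% for all tested introns and 55.3% and 55.0% for those under 2%. At the base 2 before the intron, where A pairs with U1 RNA in most introns, 53.9% of switched introns had A and 18.1% had C, against 62.6% and 11.8% of tested introns, and A stood there in 65.1% of those under 2%. Of the switched introns 17.5% were on chromosome 19 against 10.9% of tested introns, and 13.8% were annotated as kept in a GENCODE 29 transcript against 9.06%. Lengths that are a multiple of 3 were as frequent as in the rest (32.2% against 33.7%), and 99.7% lay between coding exons. Apart from length, the rule did not use these features. They are descriptions over the 293 introns with a linked transcript where exons are concerned, and no difference was tested.

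At the limits of the rule the values ran on without a gap. Just inside on the H3B-8800 side were GTPBP2 intron 2 (input 30.1% and 31.8%), AKR1C1 intron 6 and MAST2 intron 12, and just outside were EPHB4 intron 3 (45.8% and 29.9%), HIRA intron 4 and PPM1F intron 5. Just inside on the DMSO side were TESK1 intron 8 (0 and 1.99%), TRAF7 intron 15 and SKI intron 5, and just outside ZC3H7B introns 15 and 5 and NEK6 intron 6 (0.893% and 2.03%). In J2 RNA PPM1F intron 5 had 60.4% and 54.1% with H3B-8800 against 0 with DMSO, more than MAST2 intron 12 with 37.8% and 36.5% against 0.

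Of the 15 switched introns not called in J2 RNA, most had few intronic reads there. Among them were PTPRU intron 8, CRACR2A intron 4, TLN2 intron 39, GGCX intron 7 and DAGLB intron 7, with shares between 8.89% and 38.1% with H3B-8800, and the introns of HDAC3, TOP3A, SMARCA4 and RIN1. In RIN1 intron 6 the share was 4.44% and 20.3% with H3B-8800 against 5.41% and 0 with DMSO, and in SMARCA4 intron 6 it was 0 and 28.8% against 4.65% and 0, so these groups overlapped. Others were already retained in J2 RNA with DMSO. Intron 7 of KLHL18 had 53.9% and 49.6% with H3B-8800 against 12.5% and 22.9% with DMSO (edgeR adjusted p = 0.061), and intron 5 of MYOF, a membrane repair protein of the ferlin family, had 45.9% and 57.1% against 18.5% and 17.8% (edgeR adjusted p = 0.149). PTPRE intron 15, ZNF496 intron 2 and FAM73B intron 6 make up the rest, with 30.3% and 32.0%, 25.4% and 18.2%, and 14.6% and 12.7% with H3B-8800, against 15.4% and 6.06%, 8.11% and 3.39%, and 11.8% and 4.76% with DMSO. In 15 switched introns (5.05%) the share reached 10% in at least 1 J2 library with DMSO, as it did in 9.43% of all tested introns. The limit of 2% bounded the share in the input only.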

How the data were processed

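Per the labels' protocols, libraries were made from polyadenylated SUM159 RNA with a stranded mRNA kit; the submitters' processing notes name HISAT2 2.0.4, mm10 and hg38. The introns matched GENCODE 29 on GRCh38. The counting program and strand setting are not given in the sources used here. The deposited files give, without headers, a count of reads inside each intron, a total count and an RPKM. The RPKM values equal the authors' count inside the intron, scaled by length and by a round depth per library. These meanings were inferred from the values. The RPKM gave the depths only. The 18 introns of at most 9 bases without the last values were left out.

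The members and gene lists were chosen with earlier results of these data known. Intronic and spliced counts of the 4 J2 libraries were fitted with edgeR 4.0.16 in R 4.3.3, with a term per library, read kind, and read kind by drug; intronic and spliced counts were also fitted alone with depth as library size. The SE is the size of the log2 change over the square root of F. The fits were tested on simulated counts with log2 changes of at most 4, in introns with at least 10 intronic J2 reads on average. The switched introns had a median log2 change of the ratio of 7.13 and few J2 reads with DMSO. That setting was not simulated. Alternatives used DESeq2 1.42.0 and limma 3.58.1, other scalings, filters and rules, and left out each library. No alternative was added later. Introns were named by rule: the 10 largest and 5 smallest effects, up to 3 per gene list, 3 on each side of each limit, those of the 4 genes with most (1 of these genes is not reported here), and the 5 highest and 3 lowest recoveries, with SMARCA4 and the uncalled introns named after their values were seen.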

Additional observations from a re-analysis of the deposited data

How the results depend on the processing

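Under every alternative run, more switched introns were called higher than lower for the ratio and intronic reads, and more lower than higher for spliced reads. With at least 50 reads in all 8 libraries, 170 of 170 switched introns were called higher for the ratio and 170 for intronic reads, 123 were called lower for spliced reads, and 510 of 974 other introns of the host genes were called higher. Requiring an input share with drug of at least 0.50 left 103 of 105 called, of at least 0.20 gave 507 of 555, and a vehicle share under 0.05 gave 650 of 682. These changed rules used the same fit, in which 29.8% of all tested introns were called higher. For the other alternatives no share over all tested introns was counted. Intronic reads were called higher for 150 with TMM and 130 with median-of-ratios factors, which remove the common rise, and for 194 with DESeq2. Leaving out 1 J2 library at a time gave 261 to 272 for the ratio, 258 to 284 for intronic reads, 179 to 194 for spliced reads and 565 to 652 for the other introns. The lone library left in a group was assumed to vary like the others. Replicate differences with H3B-8800 and with DMSO in J2 RNA had correlations of -0.00289 for the ratio and 0.0418 for spliced reads. Counting error can also hold such values near 0, so they cannot tell whether the numbers pair the libraries. J2 and input libraries were not compared in this way. With the replicate number as a block the counts were 280, 273, 195 and 747. Of 625 values for the 60 named introns under alternatives, 4 lost the call and 6 gained it, the gains in MYOF intron 5 and HDAC3 introns 4 and 6 with limma; HDAC3 intron 6 had no intronic read in any J2 library, so its gain rests on the pseudocount and its spliced reads and shows no retention. Depth limits introns with few J2 reads.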
